A study of Mus musculus with 2 samples.

Results

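In the newborn mouse hindbrain, 33 genes of the lysosome were described: 7 proteases, 8 glycosidases, 5 enzymes of heparan and dermatan sulfate breakdown, 6 genes of lipid breakdown, 5 membrane proteins, progranulin and the transcription factor Tfeb. The 33 genes were taken by symbol from the 43346 mouse genes of the deposited tables, and all 33 symbols were found in both libraries. The series holds 1 group of 2 libraries. Each library was made from hindbrain (cerebellum, pons and medulla) of healthy B6NTac;B6NCrl/Lap mice at postnatal day 0, with males and females pooled. Replicate 1 pooled 15 mice, and the labels do not number those of replicate 2. Total RNA over 200 nt was depleted of ribosomal RNA and sequenced as stranded read pairs, with spike-in RNA added. The labels call the libraries independent isolates but give both 1 donor identifier, and SDs between them may thus hold only technical spread.

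Lysosomes are acidic organelles in which proteases, glycosidases, sulfatases and lipases break down material delivered by endocytosis and autophagy. Most of the enzymes are made in the endoplasmic reticulum, tagged with mannose 6-phosphate in the Golgi and carried to the lysosome by receptors, while heavily glycosylated membrane proteins line the organelle. Loss of a single one of these genes often gives a storage disorder that damages the brain, and Tfeb and its relatives Tfe3 and Mitf bind E-box sequences near many lysosomal genes.

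The tables held 54313140 expected counts in replicate 1 and 77142270 in replicate 2, of which 0.344% and 0.335% fell on the 33 genes, with 322 to 57321 per gene and library. All 10 hindbrain markers (Hox genes of the anterior groups, En2, Gbx2, Zic1 and Atoh1) were at 1 TPM or more in both libraries. TPM, the transcript level used here, is a count divided by effective transcript length and scaled to a fixed sum, so it can be compared between genes. The TPM of a detected protein-coding gene was in the median 1.44-fold higher in replicate 1 than in replicate 2, while its count scaled to library size was nearly equal (median log2 ratio -0.011). Differences between genes were therefore taken within each library, and differences between libraries from scaled counts. No p-value is printed, because the exact permutation test of a sign over 2 libraries has 0.5 as its smallest p. In a bulk sample, fewer cells of a type and less RNA per cell cannot be told apart.

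All 33 lysosomal genes reached 1 TPM in both libraries, against 54.6% of 21461 protein-coding genes. Their median mean level was 11.5 TPM (14.0 in replicate 1 and 9.34 in replicate 2), compared with 8.11 TPM for the detected protein-coding genes. In the ranking of detected protein-coding genes the median member stood at the 63.7th percentile in replicate 1 and the 62.3rd in replicate 2. Of the 33 genes, 21 were above the 50th percentile in both libraries and 9 were below it in both. The 3 genes above the 95th percentile in both were Psap, Ctsd and Lamp1. Levels spanned 128-fold, from Psap at 191 ± 62.8 TPM to Sgsh at 1.49 ± 0.198 TPM (mean ± SD, n = 2), and Psap and Ctsd together made up 40.6% and 41.6% of the summed TPM of the 33 genes.

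**Figure D1:**
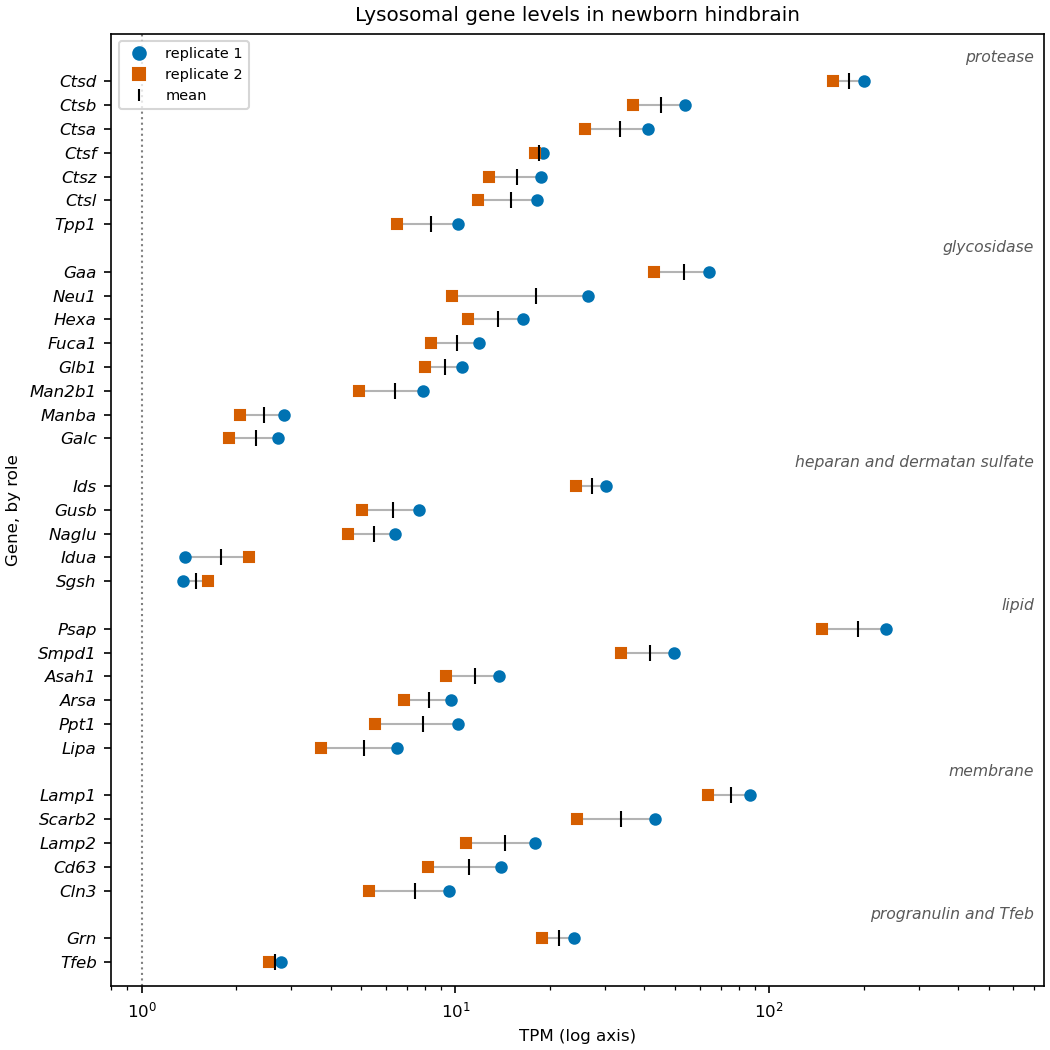
TPM of each lysosomal gene (log axis) in replicate 1 (circles) and replicate 2 (squares), with the mean of both as a tick and the detection limit of 1 TPM as a dotted line, grouped by role. Psap and Ctsd lie above 140 TPM in both libraries, 31 genes are higher in replicate 1, and Idua and Sgsh are higher in replicate 2.

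Among the proteases, the aspartic protease cathepsin D led. Ctsd was measured at 201 TPM in replicate 1 and 159 TPM in replicate 2. Ctsb, a cysteine protease that also trims dipeptides, was at 53.9 and 36.8 TPM. Ctsd was 4.02-fold above Ctsb, and when only protein-coding transcripts of each gene were summed this was 2.19-fold, with the difference beyond the spread between libraries both ways. A difference was read as beyond the spread where both libraries gave it the same sign and its mean log2 value was over 2 SD. Cathepsin A is a serine carboxypeptidase that also protects β-galactosidase and sialidase in a shared complex. Ctsa was at 41.0 and 25.8 TPM. The remaining cysteine cathepsins lay close together. Ctsf was at 19.0 and 17.9 TPM, Ctsz at 18.7 and 12.8 TPM, and Ctsl at 18.2 and 11.8 TPM. Ctsf and Ctsz did not differ beyond the spread (log2 difference 0.25 ± 0.33 SD, n = 2), whereas Ctsb was 3.04-fold above Ctsl. Tpp1, the tripeptidyl peptidase lost in a childhood form of neuronal ceroid lipofuscinosis, was the lowest protease at 10.2 and 6.50 TPM.

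The glycosidases spanned 23.2-fold. Gaa, which splits glycogen in the lysosome, was far ahead of the others at 64.5 and 42.8 TPM. Neu1, the lysosomal sialidase, was read at 26.4 TPM in replicate 1 and 9.74 in replicate 2, the widest gap among the 33 genes in TPM (2.71-fold), and its transcripts are taken up below. Hexa encodes the α subunit of β-hexosaminidase A, which removes the terminal sugar of ganglioside GM2. It stood at 16.4 and 10.9 TPM. Fuca1, the α-fucosidase, was at 11.9 and 8.34 TPM. Glb1, the β-galactosidase that acts on ganglioside GM1, was at 10.5 and 8.02 TPM, 3.55-fold below its partner Ctsa. The 2 mannosidases were unequal: Man2b1 (α) was at 7.87 and 4.92 TPM and Manba (β) at 2.84 and 2.05 TPM, a 2.58-fold difference. Galc removes galactose from galactosylceramide, a major myelin lipid. At 2.72 and 1.90 TPM it was the lowest of the glycosidases by gene TPM. Over protein-coding transcripts Manba was at 2.79 and 1.68 TPM, and its mean fell below that of Galc.

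Enzymes that take apart heparan and dermatan sulfate act in sequence on the chain ends, and they made up the lowest group, with a median of 5.50 TPM. Ids, the iduronate 2-sulfatase that takes off a sulfate, was at 30.3 and 24.2 TPM. Idua, the iduronidase that follows it, was at 1.37 TPM in replicate 1 and 2.20 TPM in replicate 2. Ids was 15.6-fold above Idua, or 25.4-fold over protein-coding transcripts. Gusb, the β-glucuronidase, was at 7.65 and 5.03 TPM. Naglu, which removes N-acetylglucosamine, was at 6.44 and 4.56 TPM and was 3.65-fold above Sgsh, the sulfamidase, at 1.35 and 1.63 TPM. Idua and Sgsh closed the order of the 33 genes and did not differ from each other beyond the spread (log2 difference 0.23 ± 0.29 SD).

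The lipid group held both the top of the order and several low enzymes. Psap encodes prosaposin, which is cut into the saposins that present sphingolipids to their hydrolases and is also secreted. It was read at 236 TPM in replicate 1 and 147 TPM in replicate 2, at the 99.0th and 98.9th percentile. Smpd1, the acid sphingomyelinase, was at 49.6 and 33.6 TPM, and Asah1, the acid ceramidase that takes the next step, was at 13.7 and 9.34 TPM. Smpd1 was 3.60-fold above Asah1 in a difference that was almost equal in both libraries (SD 0.004 on the log2 scale). Arsa, the sulfatase of the myelin lipid sulfatide, was at 9.66 and 6.85 TPM. Ppt1, the palmitoyl-protein thioesterase, was at 10.2 and 5.55 TPM and did not differ beyond the spread from Tpp1, another gene of neuronal ceroid lipofuscinosis. Lipa, the lipase of cholesteryl esters and triglycerides, was at 6.53 and 3.72 TPM. The saposin precursor was 22.9-fold above Arsa and 81.9-fold above Galc, which degrade lipids that saposins present.

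Among the membrane proteins, Lamp1 was the most abundant at 86.9 and 63.9 TPM. Its relative Lamp2 was at 17.9 and 10.8 TPM, 5.35-fold lower. Scarb2 (LIMP-2), a glycosylated protein that spans the lysosomal membrane, was at 43.3 and 24.3 TPM. Cd63, a tetraspanin of late endosomes and lysosomes, was at 14.0 and 8.18 TPM. Cln3, a multi-span membrane protein lost in juvenile neuronal ceroid lipofuscinosis, was at 9.52 and 5.31 TPM. Grn encodes progranulin, a secreted and lysosomal precursor that binds prosaposin. It was at 23.9 and 18.9 TPM, 8.78-fold below Psap.

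Tfeb was low, at 2.78 and 2.54 TPM. Its relative Tfe3 was 2.75-fold higher, and Tfeb was 2.00-fold above Mitf, both beyond the spread. Tfec, the fourth gene of the family, was at 0.03 and 0.09 TPM. These are transcript levels, and the location and activity of the factors were not measured.

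Neighbours in the order of levels often could not be separated. Of 32 neighbouring pairs, 9 differed beyond the spread: Ctsd over Lamp1, Lamp1 over Gaa, Gaa over Ctsb, Ctsb over Smpd1, Ids over Grn, Hexa over Asah1, Ppt1 over Cln3, Gusb over Naglu and Manba over Galc. An SD from 2 libraries can be small by luck, so equal genes can also pass this rule. Some of the calls were slight, such as Ppt1 over Cln3 (1.06-fold) and Ctsb over Smpd1 (1.09-fold). The share among neighbours in the order of all detected genes was not computed. The first 2 genes, Psap and Ctsd, were not among the 9 pairs: Psap was higher in replicate 1 and Ctsd in replicate 2. Over coding transcripts Psap was the higher in both libraries, at 235.8 and 147.1 TPM against 112.4 and 84.25 TPM for Ctsd. The call for Manba over Galc did not hold over coding transcripts. Manba was then at 2.79 and 1.68 TPM and Galc at 2.72 and 1.90 TPM. Over all 528 pairs of the 33 genes, 460 (87.1%) differed beyond the spread, beside 80.2% of all pairs of detected protein-coding genes. Of 22 pairs chosen for a shared pathway or complex, 17 differed beyond it. The 5 others were Ctsa and Neu1, Glb1 and Neu1, Ctsf and Ctsz, Ppt1 and Tpp1, and Tpp1 and Cln3. Over coding transcripts 19 of the 22 differed beyond the spread, with Ctsa and Neu1 and Tpp1 and Cln3 added: the mean of Cln3 was then 3.08 TPM in place of 7.42 TPM, and Tpp1 was 2.71-fold above it. The 3 genes of the cathepsin A complex stood at 33.4 (Ctsa), 18.1 (Neu1) and 9.24 TPM (Glb1) in the mean, and over protein-coding transcripts Neu1 and Glb1 were nearly level (log2 difference of Glb1 over Neu1 -0.01 ± 0.05 SD) with Ctsa 3.00-fold above Neu1.

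Psap transcripts differ by a very small exon. The 3 highest of them were compared because they hold 9, 6 or 0 extra bases between an exon of 57 bases and one of 132 bases within the coding sequence. The 9-base exon lies at chr10:60297537-60297545 (mm10, plus strand). The spliced sequence around this place is shown from GRCm38, the build named mm10, with 30 bases on each side of the junction and the extra bases in capitals.
Psap-205: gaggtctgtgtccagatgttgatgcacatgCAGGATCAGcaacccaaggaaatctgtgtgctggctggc
Psap-201: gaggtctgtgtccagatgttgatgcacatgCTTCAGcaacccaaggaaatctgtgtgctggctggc
Psap-202: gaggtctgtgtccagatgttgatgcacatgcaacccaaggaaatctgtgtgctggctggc
Psap-205, with 9 extra bases, took 74.4% of the gene's TPM in replicate 1 and 76.7% in replicate 2. Psap-202, with none, took 21.8% and 20.6%. Psap-201, with 6 bases taken from just before the downstream exon, took 3.74% and 2.24%. The order of the 3 transcripts was the same in both libraries, and the share of Psap-205 was 75.5% ± 1.66 (SD, n = 2). All of these lengths are multiples of 3, so the reading frame is kept.

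Lamp2 transcripts differ in their last exon, which encodes the membrane span and the short cytosolic tail. The forms that end in these exons are known as LAMP2A (Lamp2-201), LAMP2B (Lamp2-202) and LAMP2C (Lamp2-203), and LAMP2A is the receptor of chaperone-mediated autophagy. The 3 transcripts share 8 of their 9 exons. The coding part of each last exon is shown from GRCm38 in the direction of the gene (minus strand), with the final 30 bases before the stop codon in capitals, because these hold the tail by which the forms are told apart. They lie at chrX:38405435-38405571, chrX:38421715-38421851 and chrX:38402142-38402281 for Lamp2-201, Lamp2-202 and Lamp2-203.
Lamp2-201: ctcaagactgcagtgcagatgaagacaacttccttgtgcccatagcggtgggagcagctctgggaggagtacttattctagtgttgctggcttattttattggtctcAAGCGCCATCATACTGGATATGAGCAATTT
Lamp2-202: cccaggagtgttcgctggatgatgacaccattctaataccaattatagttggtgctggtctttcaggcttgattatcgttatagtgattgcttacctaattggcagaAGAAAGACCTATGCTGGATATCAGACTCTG
Lamp2-203: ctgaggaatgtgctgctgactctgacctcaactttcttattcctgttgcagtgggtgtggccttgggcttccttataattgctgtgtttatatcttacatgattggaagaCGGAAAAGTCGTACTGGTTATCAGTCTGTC
Aligned from their last base and compared over 137 positions, each pair was identical at 51.1% to 53.3%. Lamp2-202 led in both libraries with 50.6% and 53.1% of the gene's TPM. Lamp2-201 followed with 40.5% in replicate 1 and 32.2% in replicate 2, or 36.4% ± 5.83 (mean ± SD, n = 2). Lamp2-203 held 6.09% and 9.24%. The authors' deposited intervals for the TPM of the transcripts did not overlap between Lamp2-202 and Lamp2-201 in either library (8.58 to 9.38 against 6.53 to 7.83 in replicate 1, and 5.47 to 5.94 against 3.11 to 3.84 in replicate 2). The level of these intervals is not stated in the files.

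For 12 of the 33 genes the tables held a single transcript. Of the 21 genes with several, 15 had the same leading transcript by TPM in both libraries, beside 80.9% of 8677 detected protein-coding genes with several transcripts. The 6 others were Arsa, Ctsd, Gaa, Gusb, Idua and Neu1. By counts in place of TPM, the leader was the same for 18 of the 21, and differed for Arsa, Cln3 and Gaa.

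Neu1 showed how a short transcript weighed on a gene's TPM. Neu1-201, the coding transcript, was at 10.8 and 7.91 TPM. Neu1-203, a retained-intron transcript of 446 nt, held 154.6 counts and 54.0% of the gene's TPM in replicate 1, and was listed at 0 in replicate 2. By scaled counts the gene as a whole was 1.12-fold higher in replicate 2. Neu1-203, with 6.38% of the gene's counts in replicate 1, thus made up 14.3 of the gene's 26.4 TPM there. The 2.71-fold gap in TPM also holds the offset between the libraries, in the median 1.44-fold for detected protein-coding genes.

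Ctsd had a similar share in both libraries. Ctsd-203, a retained-intron transcript of 591 nt, took 44.1% and 47.1% of the gene's TPM from 10.8% and 13.0% of its counts. Summed over coding transcripts, Ctsd was at 112 and 84.2 TPM and still second among the 33 genes. Its coding transcripts were split differently in the libraries: Ctsd-201 held 66.2 counts in replicate 1 and 6381 in replicate 2.

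In Arsa a non-coding transcript also held a large part of the counts. The retained-intron transcript Arsa-201 took 60.5% and 44.7% of the TPM and 55.3% and 38.2% of the counts. The coding Arsa-202 took 36.4% and 54.4% of the TPM, so that the leader changed between libraries. Over coding transcripts the mean of Arsa was 3.80 TPM in place of 8.26 TPM, and Psap was then 49.0-fold above it.

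Any transcript not annotated as protein-coding was taken as non-coding. This included a Ctsa transcript without annotation that held 3.92% of the gene's counts in replicate 2. Arsa, Cln3 and Ctsd were the 3 genes with over 20% of TPM in non-coding transcripts in both libraries, beside 16.9% of detected protein-coding genes. In Cln3 these took 60.0% and 55.3% of TPM and 20.2% and 22.4% of counts, led by the 506-nt retained-intron transcript Cln3-210 at 30.0% and 24.4% of TPM. Idua and Sgsh had none in replicate 1 and 62.5% and 47.5% of TPM in replicate 2. Over coding transcripts both were higher in replicate 1, like the other genes, at 1.37 and 0.83 TPM for Idua and 1.35 and 0.85 TPM for Sgsh, under the detection limit in replicate 2. Non-coding transcripts held 31.3% of the counts of Idua and 28.6% of those of Sgsh in replicate 2, and the retained-intron transcript Neu1-202 held 14.6% and 26.0% of the counts of Neu1. The leading transcript of Idua by TPM in replicate 2, the 447-nt Idua-208, rested on 16.9 counts. Beside those of Psap and Lamp2 given above, second coding transcripts were large in Ctsa, Gaa and Gusb. The 659-nt Ctsa-210 took 30.9% and 32.0% of the TPM of Ctsa, behind Ctsa-202 with 43.9% and 49.4%. In Gaa, Gaa-203 (46.0% and 41.1%) and Gaa-201 (36.8% and 45.1%) exchanged places, and in Gusb so did Gusb-202 (43.3% and 30.9%) and Gusb-201 (37.2% and 43.3%). Whether reads of short or intron-holding transcripts come from mature RNA, from precursor RNA kept in a total RNA library or from the division of shared reads was not tested.

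**Figure D2:**
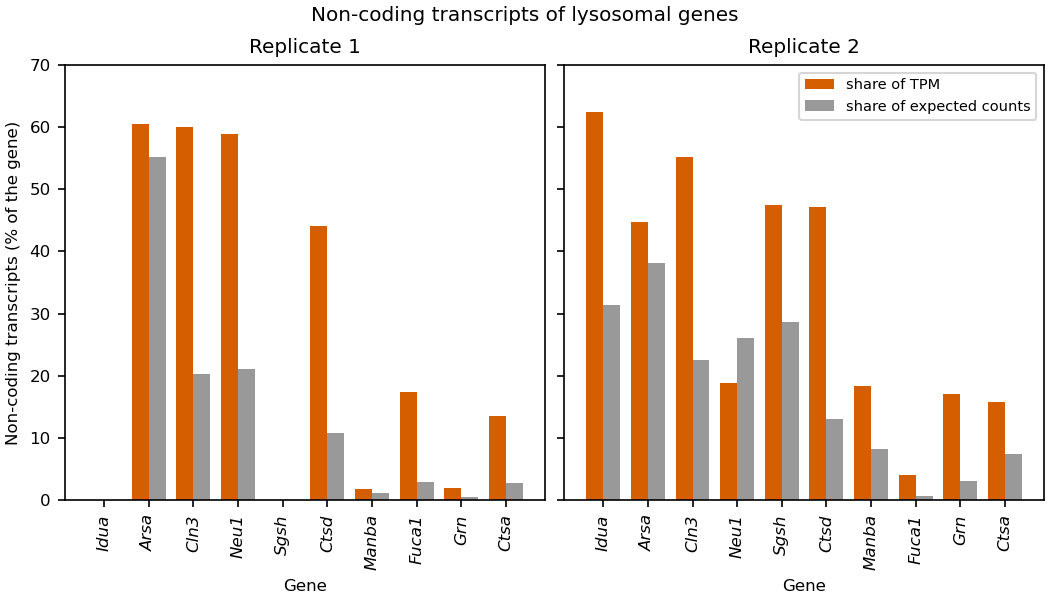
Share of each gene's TPM (orange) and of its expected counts (grey) on transcripts not annotated as protein-coding, as percent of the gene. Shown are the 10 lysosomal genes with over 10% of TPM in such transcripts in at least 1 library. The TPM share of Ctsd and Cln3 is well above the count share in both libraries, Idua and Sgsh have such transcripts only in replicate 2, and the TPM share of Neu1 is 59.0% in replicate 1 and 18.7% in replicate 2.

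Between the libraries, scaled counts of the 33 genes were close. None of the 33 differed by over 1.5-fold. Of the 11144 protein-coding genes that averaged 400 counts or more, 5.09% did, and at that share few of 33 genes would. Of all 17632 genes that averaged 10 counts or more, 24.6% did (14.7% higher and 9.88% lower in replicate 2). The median log2 ratio of replicate 2 over replicate 1 was -0.04, with 13 genes above 0 and 20 below, and the median over all genes tested was 0.005. Scaled by spike-in totals, which moved the median of all genes to 0.106, 22 of the 33 were above 0 and 11 below. Ctsf had the highest ratio at 0.44, with 48.1 CPM (counts per scaled library) in replicate 1 and 65.3 CPM in replicate 2. Ppt1 had the lowest at -0.36, with 30.3 and 23.7 CPM. All 5 enzymes of heparan and dermatan sulfate breakdown lay above 0 by whole-gene counts (0.02 for Naglu to 0.34 for Sgsh). Non-coding transcripts held 31.3% and 28.6% of the replicate 2 counts of Idua and Sgsh and none in replicate 1. The coding Sgsh-201 held 446 and 573 counts. The coding Idua-202 and Idua-203 held 156.0 and 166.0 counts in replicate 1, and 124.9 and 261.1 in replicate 2. In proportion, the coding counts of both genes rose less than the scaled library size (53612720 to 76306231). Their ratios thus lay above 0 only with the non-coding transcripts included. In the membrane group 4 of 5 lay below 0, down to -0.31 for Scarb2, with Lamp1 at 0.07 as the exception, and in the lipid group 5 of 6 lay below 0, with Arsa at 0.12 as the exception (3 of 6 with spike-in totals, where the counts of the heparan and membrane groups were the same). Tfeb was at 0.35 and Grn at -0.06.

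**Figure D3:**
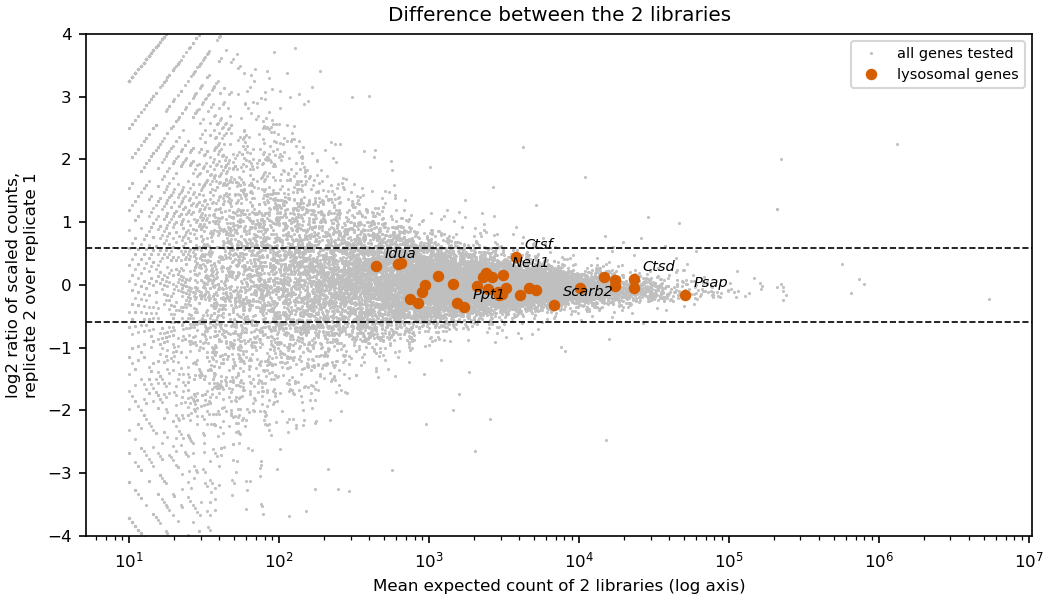
Log2 ratio of scaled counts, replicate 2 over replicate 1, against the mean expected count (log axis) for all 17632 genes tested (grey) and the 33 lysosomal genes (orange), with dashed lines at 1.5-fold and 294 grey points beyond the limits of 4 not drawn. Every lysosomal gene lies between the dashed lines, from Ppt1 at -0.36 to Ctsf at 0.44.

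The 6 choroid plexus markers were all higher in replicate 2 (median log2 ratio 0.53, 3 of 6 over 1.5-fold, summed level 349 and 369 TPM), and none was at 0. Of 12 microglia markers 8 had a ratio above 0 and 4 below (median 0.15, range -3.03 to 1.34, summed level 95.2 and 66.1 TPM), and none was at 0 in both. The summed TPM of these 2 lists carry the median 1.44-fold offset in TPM between the libraries and are not a comparison of them. The 8 neuron markers had a median log2 ratio of -0.09 and the 8 astrocyte and radial glia markers one of -0.02. The 6 oligodendrocyte lineage markers had a median of 0.17 with 4 of 6 above 0, the 6 endothelial markers one of -0.13, and the 6 meningeal fibroblast markers one of 0.02. Cells of all these types express lysosomal genes, and their part in the ratios of the 33 genes was not tested.

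Other genes of the lysosome and of the paths that feed it set the members in context. Of 25 other lysosomal enzymes and cofactors, 24 were detected, with a median of 6.56 TPM. They were led by Lgmn (asparaginyl endopeptidase, 34.8 TPM) and ended with Ctsk (1.36 TPM) and Gla (α-galactosidase A, 1.21 TPM), and Gla was the one under 1 TPM in a library. The 15 other membrane proteins, 14 of them detected, had a median of 8.85 TPM, with Laptm4a (44.6 TPM), the calcium channel Mcoln1 (27.3 TPM) and Laptm4b (23.1 TPM) highest and Slc38a9 (0.84 TPM) lowest. The V-ATPase is the proton pump that acidifies the lysosome and also synaptic vesicles. The 18 genes listed for it, a selection that includes Atp6ap1 and Atp6ap2, were all detected at a median of 42.6 TPM. Atp6v0c reached 191 TPM, close to Psap, and Atp6v0a2 was lowest at 5.95 TPM. By scaled counts, 2 of the 25 other enzymes were over 1.5-fold lower in replicate 2, Aga (log2 ratio -0.86, named after its value was seen) and Gla (-0.66), and none of the 15 other membrane proteins or 18 V-ATPase subunits differed by that much.

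All 9 genes of mannose 6-phosphate and sortilin sorting were detected at a median of 9.63 TPM, from Sort1 (sortilin, a carrier of prosaposin) at 21.4 TPM to Nagpa, the enzyme that uncovers the tag, at 2.20 TPM. M6pr, the smaller receptor of the tag, was at 11.4 TPM and was 1.58-fold above Igf2r, the larger one. The list of Tfeb relatives and lysosomal mTORC1 control had 16 of 17 genes detected at a median of 10.5 TPM, led by Lamtor1 (33.5 TPM), with Tfec under 1 TPM. The 18 autophagy genes were all detected at a median of 20.3 TPM, led by Map1lc3a (162 TPM), Sqstm1 (69.4 TPM) and Map1lc3b (65.8 TPM).

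**Figure D4:**
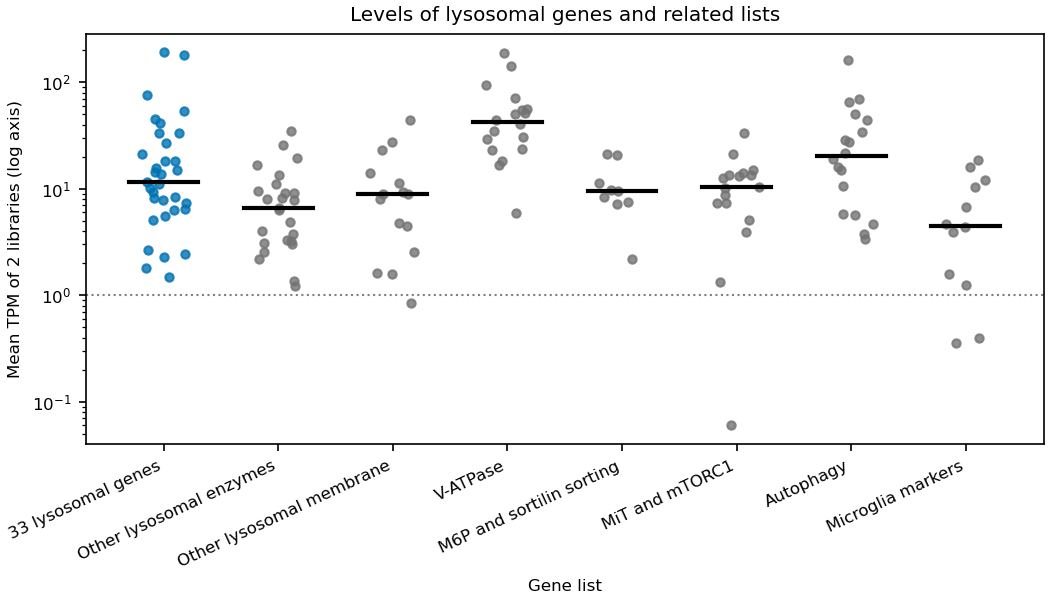
Mean TPM over the 2 libraries (log axis) of each gene in the 33 lysosomal genes (blue) and in 7 related lists (grey), with a bar at each list's median and the detection limit of 1 TPM as a dotted line. The median of the 33 genes is 11.5 TPM, below that of the V-ATPase subunits (42.6 TPM) and of the autophagy genes (20.3 TPM).

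Promoter sequence was described next, since Tfeb and its relatives bind the E-box CACGTG. RefSeq promoter windows of GRCm38.p6, 250 bases before to 50 after each start, were matched by symbol for 31 of the 33 genes, all but Asah1 and Ctsb. The hexamer reads the same on both strands. It was present in 11 of the 31 genes (35.5%), beside 11.8% of 9225 detected protein-coding genes and 8.09% of all 27025 genes of the table. Counted by window, since a gene can have several, it was in 11 of the members' 36 windows (30.6%) and in 7.15% of all 32851. With a T before it or an A after it (TCACGTG on either strand), it was present in 9 of 31 (29.0%) beside 7.09% of the detected genes. A match is a description of the letters and not evidence of binding, and the members were known lysosomal genes.

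Lamp1 held 4 copies in its window, a number reached by 4 of the 9225 detected genes (0.0434%). The last 100 bases before its start are shown because all 4 copies lie in them (chr8:13159061-13159160, plus strand), with the hexamers in capitals.
Lamp1: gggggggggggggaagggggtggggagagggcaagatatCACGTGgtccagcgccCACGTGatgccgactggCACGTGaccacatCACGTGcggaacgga

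Ctsd, Cln3 and Ctsa held 2 copies each, and Arsa, Ctsf, Ctsl, Gaa, Glb1, Naglu and Sgsh held 1. One copy of each of 6 of these genes is shown with 10 bases on either side to let the flanks be compared, in the direction of the gene. They lie at chr7:142387910-142387935 (Ctsd), chr11:119267813-119267838 (Gaa), chr9:114401020-114401045 (Glb1), chr11:101070011-101070036 (Naglu), chr2:164833751-164833776 (Ctsa) and chr19:4855076-4855101 (Ctsf), with Ctsd on the minus strand and the others on the plus strand.
Ctsd: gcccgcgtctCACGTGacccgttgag
Gaa: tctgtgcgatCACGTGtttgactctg
Glb1: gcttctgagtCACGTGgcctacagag
Naglu: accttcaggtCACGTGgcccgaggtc
Ctsa: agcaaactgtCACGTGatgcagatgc
Ctsf: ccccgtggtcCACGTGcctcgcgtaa
The hexamer of Ctsf, like that of Ctsl, lacks both the T before and the A after. Psap, the highest of the 33 genes, had no hexamer in its windows, and neither had Lamp2, Smpd1, Scarb2 or Tfeb. The 11 genes with the hexamer had a median level of 15.0 TPM (1.49 to 180) and the 20 without it one of 10.6 TPM (1.78 to 191), so the ranges overlapped almost entirely.

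**Figure D5:**
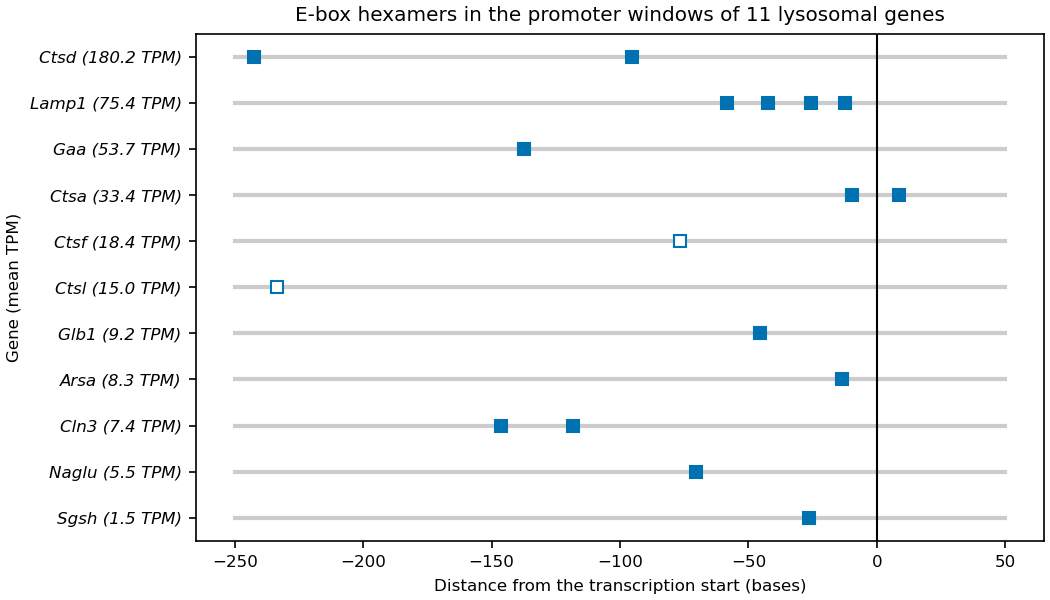
Position of each E-box hexamer (square) in the promoter windows of 11 lysosomal genes, as distance in bases from the transcription start (vertical line), ordered by mean TPM, with filled squares where the flanking T or A is present. The 4 copies in Lamp1 lie within 61 bases before the start, and the hexamers of Ctsf and Ctsl are open.

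In the annotation, 3 pairs of the 33 genes lie near each other. Gaa and Sgsh, on chr11, are 58.0 kb apart and stood at opposite ends of the order, at 53.7 and 1.49 TPM. Smpd1 and Tpp1 are 186 kb apart on chr7, at 41.6 and 8.36 TPM, and Naglu and Grn are 1350 kb apart on chr11, at 5.50 and 21.4 TPM. Over 5% of their exon bases were shared by 8 members with another gene of the tables, among them Sgsh (21.6% with Card14 on the opposite strand), Arsa (18.8% with C230037L18Rik), Ctsb (12.8% with Fdft1), Hexa (12.8% with Tmem202) and Ctsa (10.5% with Pltp and 6.87% with Neurl2). The sources used here do not say whether strand was used in counting, and the counts of these genes are therefore uncertain. Glb1 shared 5.49% with Tmppe on the same strand, where strand does not separate them. With genes that have no gene row of their own, Ctsd shared 34.4% (Gm49369, same strand) and Ctsl 26.8% (Gm47123, opposite strand). The transcript Gm49369-201 was counted under Ctsd, with 10.49 counts in replicate 1 and 2.42 in replicate 2.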

How the data were processed

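RNA was measured in 2 libraries of 1 group. Per the file headers, the authors deposited expected counts per gene and transcript, which are estimated and need not be whole because shared reads are divided. They also deposited TPM with interval bounds, and each transcript's percent of its gene's TPM. Per the deposited file notes, alignments to the transcriptome used genome build mm10 and GENCODE M4; the quantifier is not given in the sources used here. GENCODE M21, on the same build, gave symbols and coordinates, matching 42462 of 43346 mouse genes. Rows that name no mouse gene held 1.28% and 1.09% of counts and stayed out of library sizes. Counts were rounded and scaled by TMM in edgeR 4.0.16 (R 4.3.3) with a prior count of 2; the ratio was tested on simulated data. A gene was detected at 1 TPM in both libraries. The chi-square of counts between the libraries was 100.7 per degree of freedom, more than counting noise alone gives. It cannot tell independent isolates from technical repeats. The libraries were kept as 2 samples. The spread between them is all that the SDs measure.

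The members, lists, pairs and tests were chosen with earlier results of these data known. Named genes were all members, genes of the pairs and, of the related lists, up to 3 of the highest and 2 of the lowest; transcripts were named at 20% or more of TPM in both libraries, for Lamp2 and Psap in any case, and where a coding sum changed a level (chosen after their values were seen). Some genes that this rule covers are not reported here. Sums over coding transcripts and leaders by counts were added after seeing the data.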

Additional observations from a re-analysis of the deposited data

How the results depend on the processing

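The median level of the 33 genes, 3.54 as log2(mean TPM + 0.1), was 5.61 when TPM was rescaled to nuclear protein-coding genes, which divides by a smaller sum. The median percentile, 63.0 as the mean of both libraries, was 79.8 among all protein-coding genes and 64.1 over coding transcripts. The median log2 ratio between libraries, -0.0437, was 0.057 with spike-in totals, which move the median of all genes tested to 0.106, so its sign is not settled, while no gene passed 1.5-fold under any scaling tried. Neighbours beyond the spread numbered 9, and 17 at 1 SD. Without either library in turn the median level was 3.24 to 3.81, the percentile 62.3 to 63.7 and the number detected 33. At 2 TPM, 30 genes were detected, and over coding transcripts 31. Pairs beyond the spread numbered 14 to 20 against 17, and genes with the same leading transcript 14 to 18 against 15. No paired analysis was possible because the series holds a single group. Each gene held at least 322 counts in each library, but some transcripts held few, and having 2 libraries limits the precision.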
